A study of Arabidopsis thaliana with 6 samples.

Results

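The 49 genes described here belong to families that build, cut or loosen the polysaccharides of the plant cell wall. They are the genes whose symbol in the platform annotation starts with GH9, XTH, CSL, CESA, EXPA, EXPB, EXLA or EXLB and whose probe set is paired with that gene alone, out of 13356 genes measured through such probe sets. The rule used names and no measured value, but it was set with earlier results of these data known. Each of the 49 genes had 1 such probe set, so no choice of the brightest was needed. They comprised 15 GH9, 9 XTH, 7 CSL, 10 EXPA, 4 EXPB, 3 EXLA genes and 1 EXLB gene, against 118 genes with such symbols in the gene table of assembly TAIR10.1. None of the 7 CESA genes of that table was paired with a probe set of its own in the annotation used here, so the cellulose synthases proper were not analysed.

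Cellulose microfibrils of the primary wall are tethered and spaced by hemicelluloses, of which xyloglucan is the main one in Arabidopsis. CESA proteins make cellulose at the plasma membrane, and some of the related CSL proteins, among them CSLA and CSLC, make hemicellulose backbones in the Golgi. Xyloglucan endotransglucosylase/hydrolases (XTH) cut and rejoin xyloglucan in the wall, GH9 glucanases act on cellulose and related glucans, and expansins loosen the contact between polymers without hydrolysis. In seeds, wall loosening is best known from germination, when the endosperm weakens and the embryo elongates. A dry seed holds transcripts stored during maturation.

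The RNA was from samples labelled as dry seeds of Arabidopsis thaliana, either wild-type Col or hda9-1, a T-DNA insertion line (SALK_001723) of HISTONE DEACETYLASE 9, whose product removes acetyl groups from histones. Ripe siliques were taken 18 to 19 days after pollination from plants on soil. Both genotypes had days of 16 h at 22 °C and nights of 8 h at 16 °C. Each genotype had 3 biological replicates, every one a pool of siliques over a number of plants, with 1 Affymetrix ATH1 array for each. The text on the design names dry siliques instead, and which material was extracted is not settled. The hda9-1 mutant is a single line.

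The deposited values are log2 expression values per probe set, and a change is the hda9-1 mean minus the Col mean on that scale. No probe set was paired with HDA9 alone, so the mutated gene does not check the genotype labels here. Of 20 genes listed for the embryo and dry seed 2 were measured. PAP85, a vicilin-like storage protein gene, read 14.16 to 14.28 in all 6 arrays, and OLEO3, an oleosin of oil bodies, read 9.73 to 10.22 in Col and 9.28 to 9.63 in hda9-1. ADPG1, a polygalacturonase gene of the silique wall, read 12.81 to 12.85 in Col and 12.22 to 12.49 in hda9-1, so these markers do not tell seeds from siliques that hold seeds. Col replicate 3 stood apart on the second principal component of all probe sets (−25.8, against −11.5 to 16.3 for the other 5 arrays). The 3′ excess of control probe sets, a sign of RNA quality, was higher in hda9-1 on average for actin (by 0.22, with 3.56 to 4.10 in Col and 3.72 to 4.19 in hda9-1) and ubiquitin (by 0.11). For GAPDH the mean difference was −0.03, with 2.61 to 3.23 in Col and 2.68 to 2.98 in hda9-1, and Col replicate 3 was the highest Col array for all 3 controls. The part of RNA quality in the wall gene values was not tested.

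In hda9-1 samples 2 of the 49 wall genes fell and none rose at a limma adjusted p under 0.05. Both are expansin genes, EXPA4 and EXPB5. They are 4.08% of the members, where 2.45% of all 22746 probe sets were called lower and 1.37% higher. Most changes pointed down, since 38 members had a negative and 11 a positive value. The median log2 change of the members was −0.07, against −0.00 over all probe sets, of which 51.2% were negative. At an unadjusted p under 0.05 there were 13 members lower and 0 higher, with 9.62% of all probe sets lower and 9.59% higher by that rule.

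Replicates carry the numbers 1 to 3 in each genotype, and same-numbered arrays deviated from their group means together across all probe sets (r = 0.34, 0.21 and 0.21). Over the 49 members alone the same correlations were 0.66 and 0.55 for replicates 1 and 2 but −0.07 for replicate 3. EXPA15 had the widest spread within both genotypes (SD 0.90 in Col and 1.37 in hda9-1) and so weighs heavily in these 3 values. They were not computed without it and do not show that the members as a set share a replicate effect. In the limma fit that held this number as a block, 6 members passed, all lower, and none passed higher. They were EXPA4, EXPB5, the glucanase genes GH9A4 and GH9C2 and the xyloglucan synthase genes CSLC5 and CSLC12. They are 12.2% of the members, where 3.64% of all probe sets were called lower and 2.75% higher by that fit. In 13 members all 3 hda9-1 arrays lay below all 3 Col arrays (26.5%, against 12.1% of all probe sets), and in 2 members they all lay above (4.08%, against 11.6%). The RNA is from whole organs of many cell types, so fewer cells of a type and less RNA per cell cannot be told apart in any of these values.

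**Figure D1:**
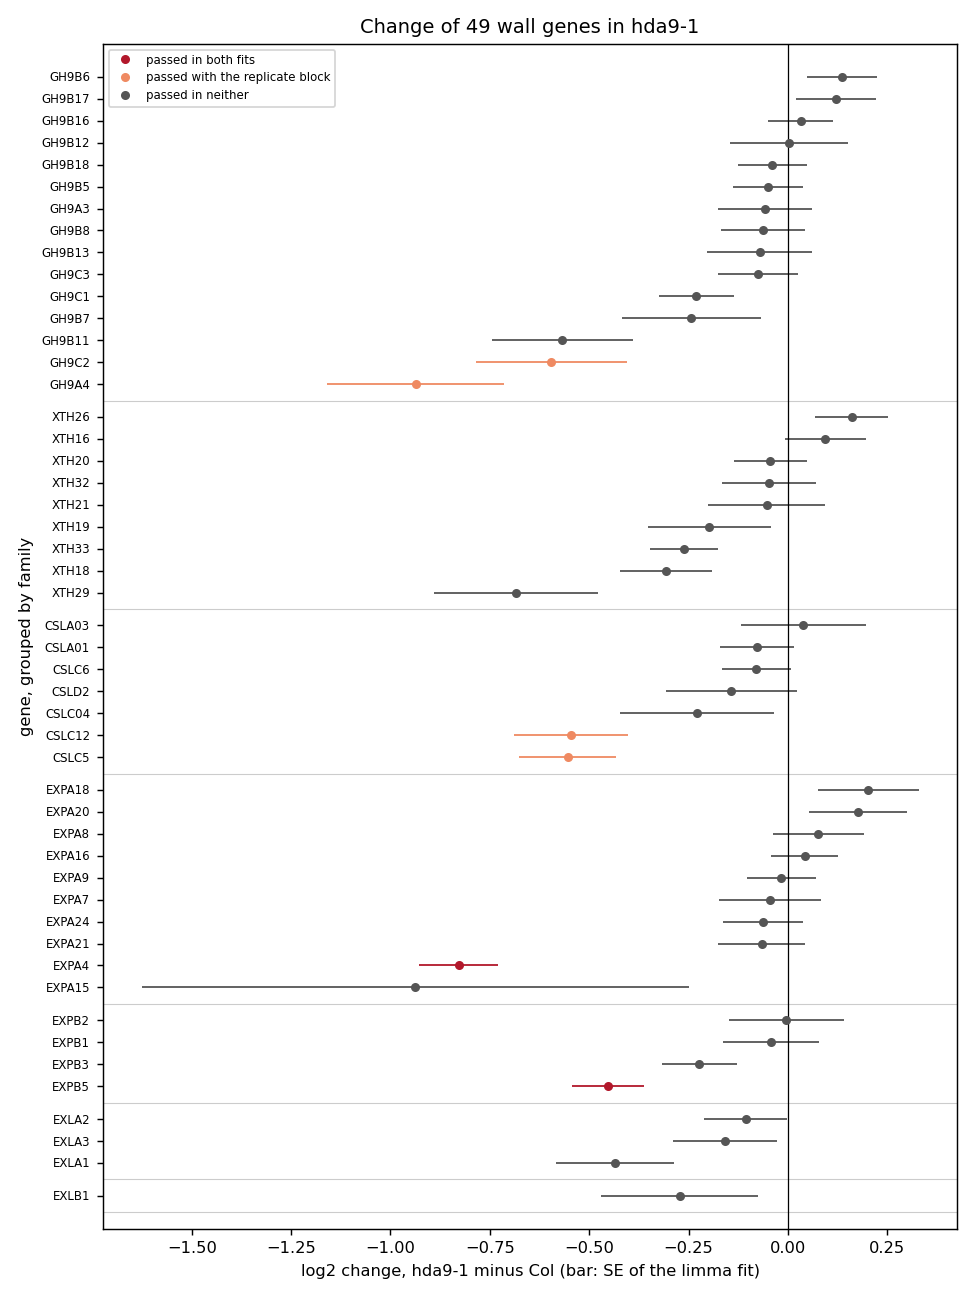
Log2 change (x axis, hda9-1 minus Col) of each of the 49 wall genes, grouped by family on the y axis. Points are estimates and bars the SE of the limma fit, n = 3 arrays per genotype. The values run from −0.94 for EXPA15, which has the widest bar, to 0.20 for EXPA18.

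Most members gave a weak signal. For 40 of the 49, the mean over the 6 arrays lay below 5.44, the median over all probe sets tested. Signals of different probe sets do not rank transcripts by abundance, but dim probe sets leave less room to see a difference. All 9 brighter members had a negative change, namely GH9A4, GH9C2, XTH29, CSLC5, CSLC6, CSLD2, EXPA4, EXPA15 and EXLA1. GH9C2 reached that signal through Col alone (means of 5.83 in Col and 5.23 in hda9-1), so its place among the 9 depends on its change, and the other 8 reached it in both genotypes. The median was −0.60 for the 9 and −0.62 for these 8. Of the 11373 probe sets picked like the 9, by the mean over the 6 arrays, 47.1% were negative and the median was 0.02. CSLD2 is the exception to the negative direction of the 9 when Col replicate 3 is left out (0.02) or arrays are weighted (0.01).

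Of the 8, EXPA4 fell in the limma fit by genotype, where 3.99% of the brighter probe sets were called lower. With the replicate block 3 fell, EXPA4, GH9A4 and CSLC5, where 5.94% of the brighter probe sets did. In 5 of the 8 the arrays of hda9-1 all lay below those of Col, as in 15.4% of the brighter probe sets. The brighter probe sets in these shares were picked by the mean over all arrays, a looser rule than that for the 8, which passed in both genotypes. These counts describe a few genes picked by signal and are not offered as support for a shift of the families. The other 40 members had a median of −0.06, with 29 negative values (72.5%) and 1 call lower. Among all 11373 dimmer probe sets the median was −0.01, 55.3% were negative and 0.914% were called lower.

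**Figure D2:**
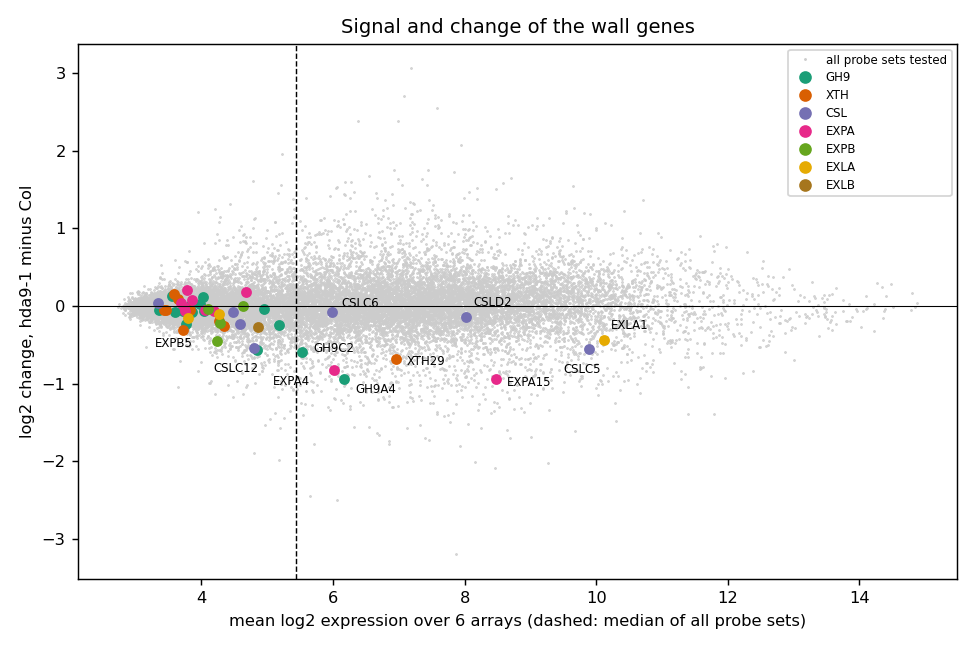
Mean log2 expression over the 6 arrays (x axis) against the log2 change, hda9-1 minus Col (y axis), for all 22746 probe sets tested (grey) and the wall genes by family (colours). Right of the dashed line at 5.44 stand 9 wall genes, all below 0, and most of the other 40 lie close to 0.

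Alpha-expansins (EXPA) are small wall proteins that loosen growing walls at acid pH. EXPA4 (AT2G39700) read 6.56, 6.32 and 6.40 in the Col arrays and 5.67, 5.51 and 5.62 in the hda9-1 arrays. The groups were 0.65 apart at their nearest arrays, the widest gap of all 49 members. EXPA4 fell by 0.83 on the log2 scale (SE 0.10, limma adjusted p = 0.0112), which is 1.78-fold. The adjusted p was 0.0518 without Col replicate 1 and 0.0559 without hda9-1 replicate 2, and from 0.0178 to 0.0415 without any of the other 4 arrays.

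EXPA15 (AT2G03090) had the most negative value of the family and the least certain one. Its levels were 7.92, 9.60 and 9.30 in Col and 7.00, 9.56 and 7.45 in hda9-1. Replicate 1 was low and replicate 2 high in both genotypes, and the groups overlapped. The change of −0.94 had an SE of 0.69, against a median SE of 0.12 over the members, and a limma adjusted p of 0.547 (0.138 with the replicate block). Its 95% interval ran from −2.54 to 0.66.

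The other 8 alpha-expansins read between 3.60 and 4.80 in every array, and their changes lay between −0.07 and 0.20. EXPA7 and EXPA18, known for root hairs, were at −0.04 (SE 0.13) and 0.20 (SE 0.13). EXPA18 had the largest positive value of the family and of all members, with 3.77, 3.60 and 3.68 in Col and 3.69, 3.84 and 4.13 in hda9-1. Its groups overlapped and its adjusted p was 0.461. EXPA20 followed at 0.18 (SE 0.12, adjusted p = 0.520).

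Beta-expansins (EXPB) form the sister group of the alpha-expansins. EXPB5 (AT3G60570) read 4.53, 4.40 and 4.44 in Col and 4.01, 4.09 and 3.91 in hda9-1. All 3 mutant arrays lay below Col by at least 0.32. EXPB5 fell by 0.45 on the log2 scale (SE 0.09, limma adjusted p = 0.0412), a 1.37-fold difference on a dim probe set. The call did not survive the loss of any single array, with adjusted p values from 0.0622 to 0.143, although the change stayed between −0.50 and −0.41.

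EXPB3 (AT4G28250) had the same order of arrays, with 4.35 to 4.44 in Col and 4.05 to 4.27 in hda9-1, a change of −0.22 (SE 0.09) that did not pass (limma adjusted p = 0.251). EXPB1 and EXPB2 were at −0.04 and −0.00, with overlapping groups. EXPB2, at 4.80, 4.43 and 4.67 in Col and 4.80, 4.38 and 4.71 in hda9-1, followed the replicate number, with replicate 2 the lowest in both genotypes. EXPB2 had the least negative value of the 4 beta-expansins and EXPB5 the most negative one.

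Expansin-like genes (EXLA and EXLB) resemble expansins in sequence, and no loosening activity has been established for them. EXLA1 (AT3G45970) read 10.47, 10.30 and 10.23 in Col and 9.97, 10.13 and 9.59 in hda9-1. The groups were 0.10 apart, and the change of −0.43 (SE 0.15) did not pass (limma adjusted p = 0.161, or 0.0883 with the replicate block). Its neighbour in the genome, EXLA3, was at −0.16 (SE 0.13), and EXLA2 at −0.11 (SE 0.10), with 4.48, 4.26 and 4.22 in Col and 4.30, 4.12 and 4.21 in hda9-1. EXLB1, with 4.58, 5.03 and 5.39 in Col and 4.68, 4.89 and 4.61 in hda9-1, spanned a wider range in Col than in hda9-1 and was at −0.27 (SE 0.20, adjusted p = 0.542). All 4 expansin-like members thus had negative values and none passed, and only EXLA1 had groups that did not overlap. AT4G30380, with the synonym EXLB2, is not a member because of its symbol. It went the other way (0.20, SE 0.08, limma adjusted p = 0.211).

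**Figure D3:**
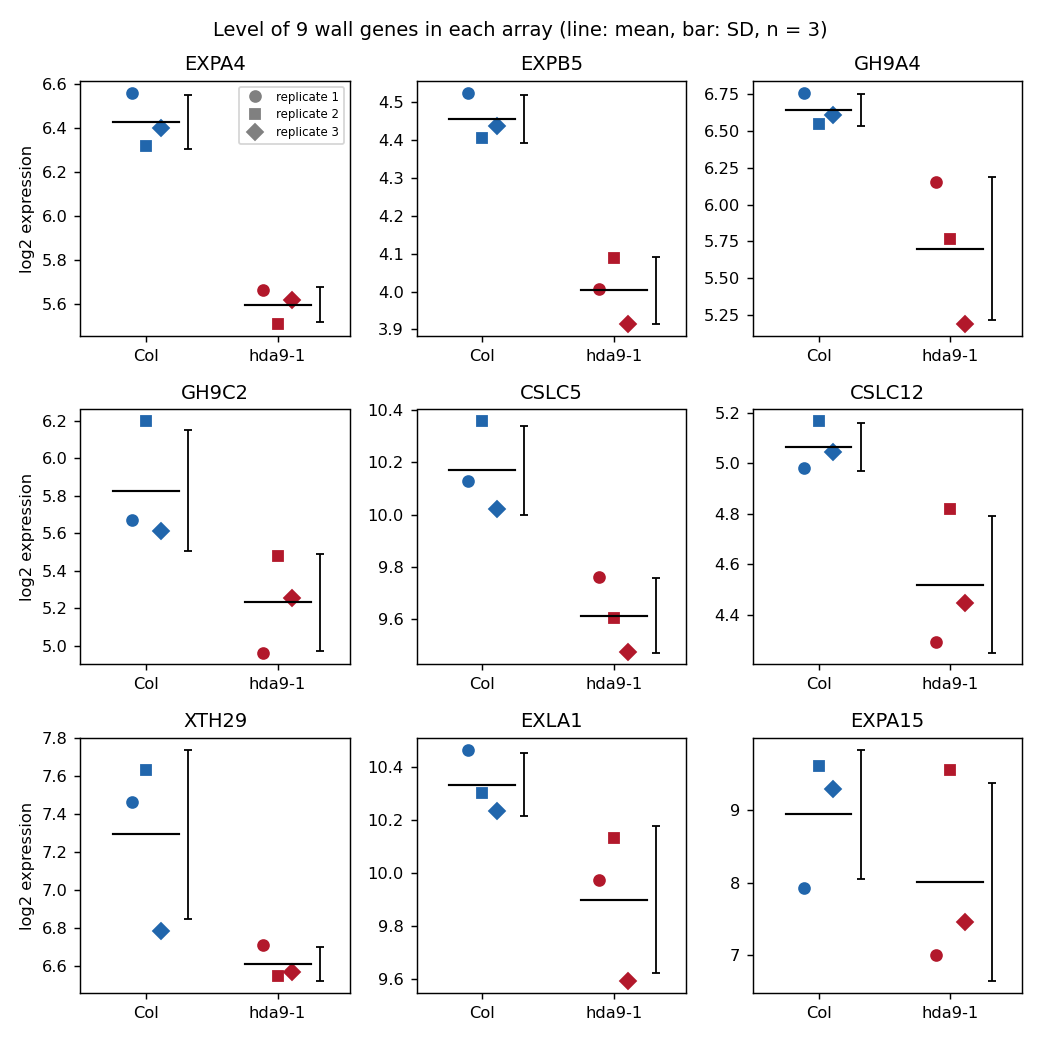
Log2 expression (y axis) of 9 wall genes in every array, Col in blue and hda9-1 in red, with the replicate number as the marker, the mean as a line and the SD (n = 3) as a bar. Each panel has its own scale. The groups are apart in 8 panels, narrowly for XTH29, and overlap for EXPA15.

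The CSL family includes synthases of hemicellulose backbones. CSLC proteins make the glucan backbone of xyloglucan, and 4 of them were measured, all with negative values. CSLC5 (AT4G31590) read 10.13, 10.36 and 10.02 in Col and 9.76, 9.61 and 9.48 in hda9-1. The groups were 0.26 apart. The change of −0.55 (SE 0.12), 1.47-fold lower in hda9-1, stood just outside the limit in the limma fit by genotype (adjusted p = 0.0527) and passed with the replicate block (0.0399).

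CSLC12 (AT4G07960) read 4.98, 5.17 and 5.05 in Col and 4.29, 4.82 and 4.45 in hda9-1. In both genotypes replicate 2 was the highest and replicate 1 the lowest, and the groups did not overlap. The change of −0.54 (SE 0.14) passed only with the replicate block (limma adjusted p = 0.0852 without and 0.0386 with it). No fit that left out 1 array called CSLC5 or CSLC12.

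CSLC04 (AT3G28180), with 4.47, 4.51 and 5.14 in Col and 4.40, 4.71 and 4.33 in hda9-1, was at −0.23 (SE 0.19, adjusted p = 0.615). Col replicate 3 was its high array, and without it the value was −0.01. CSLC6 (AT3G07330) read 5.95 to 6.11 in Col and 5.91 to 5.98 in hda9-1. Its change of −0.08 had a 95% interval from −0.28 to 0.12, which leaves out a decrease of the size measured for CSLC5, though the difference between the genes was not tested.

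CSLA proteins make the mannan backbone of glucomannan, and the CSLD gene CSLD2 is known from root hairs. CSLA01 and CSLA03 were at −0.08 (SE 0.09) and 0.04 (SE 0.16). CSLA03 read 3.18, 3.17 and 3.60 in Col and 3.23, 3.22 and 3.61 in hda9-1, with replicate 3 the highest in both genotypes. CSLD2 (AT5G16910) read 7.78, 8.08 and 8.41 in Col and 8.02, 8.03 and 7.79 in hda9-1, so the groups overlapped (−0.14, SE 0.16, adjusted p = 0.732).

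The GH9 family is divided into classes by domain structure. Class A includes the membrane-anchored KORRIGAN type that takes part in cellulose synthesis, class B holds secreted glucanases, and class C proteins carry an additional carbohydrate-binding module. GH9A4 (AT3G43860) read 6.76, 6.55 and 6.61 in Col and 6.15, 5.76 and 5.19 in hda9-1. All mutant arrays were lower, and they were more spread than the Col arrays (SD 0.49 against 0.11). The change of −0.94 (SE 0.22), 1.91-fold, had a limma adjusted p of 0.0650, or 0.0330 with the replicate block, and it also passed without hda9-1 replicate 1 (0.0414). GH9A3, the other class A gene, was at −0.06 (SE 0.12).

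In class C, GH9C2 (AT1G64390) read 5.67, 6.20 and 5.61 in Col and 4.96, 5.48 and 5.25 in hda9-1. Replicate 2 was the highest in both genotypes and the groups were 0.13 apart. The change of −0.60 (SE 0.19) passed only with the replicate block (limma adjusted p = 0.137 without and 0.0362 with it). GH9C1, known from root hairs, was at −0.23 (SE 0.09, adjusted p = 0.234) with 3.79 to 4.02 in Col and 3.63 to 3.69 in hda9-1, and GH9C3 was at −0.08 (SE 0.10).

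None of the 10 class B genes passed in either fit, and all were dim. GH9B11 (AT2G44560) had the most negative value, −0.57 (SE 0.18, limma adjusted p = 0.131, or 0.0726 with the block), with 4.94, 5.39 and 5.08 in Col and 4.75, 4.74 and 4.22 in hda9-1. Its direct neighbour GH9B12 was at 0.00 (SE 0.15), with 3.64 to 4.07 in Col and 3.70 to 4.08 in hda9-1. GH9B6 had the largest positive value of the family, 0.14 (SE 0.09, adjusted p = 0.484), with 3.51, 3.43 and 3.50 in Col and 3.69, 3.52 and 3.63 in hda9-1. The groups did not overlap in GH9B11 or GH9B6, and in GH9B6 they were only 0.01 apart. The 3 adjacent genes GH9B16, GH9B17 and GH9B18 lay between −0.04 and 0.12, and the 4 genes GH9B5, GH9B7, GH9B8 and GH9B13 between −0.24 and −0.05.

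**Figure D4:**
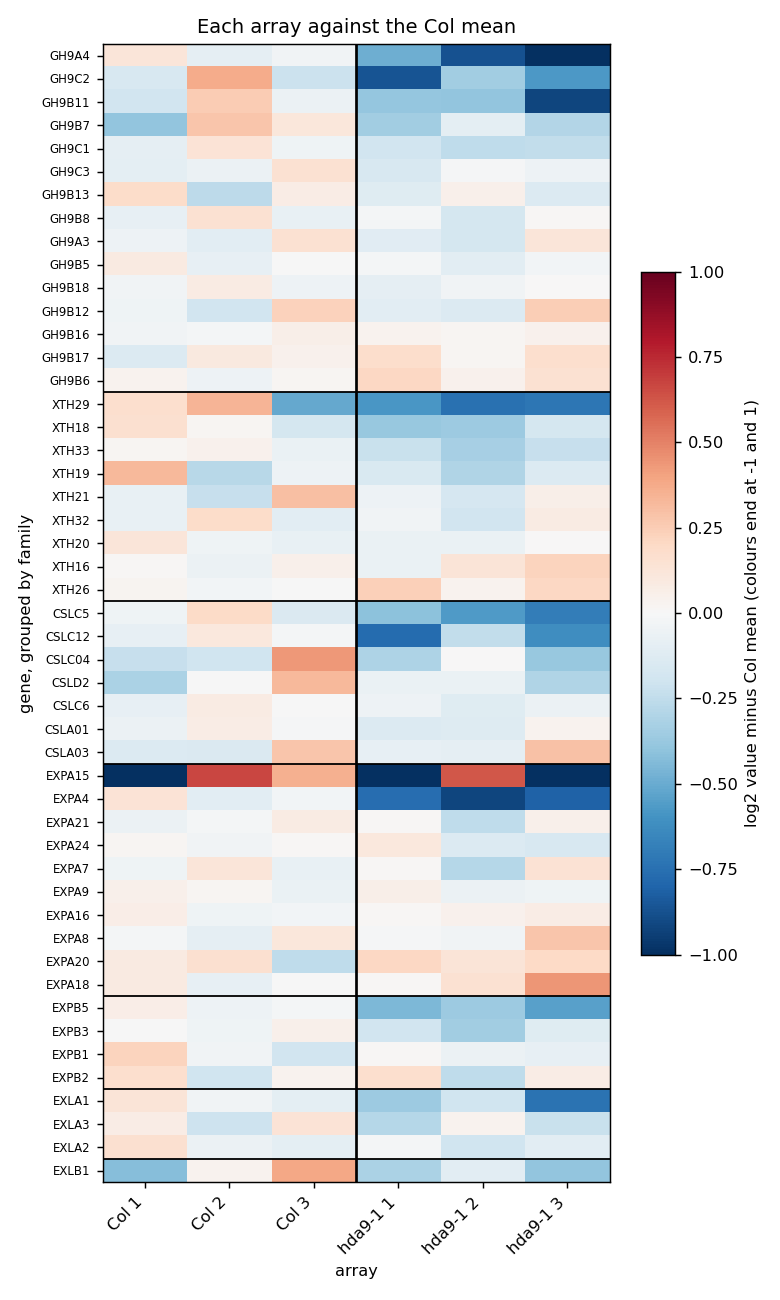
Log2 value of each of the 49 wall genes (rows, by family) in each of the 6 arrays (columns) minus its Col mean, in blue below and red above that mean. Rows are sorted within each family by the change, most negative first, so the lower hda9-1 values stand at the top by construction. EXPA15 is low in replicate 1 and high in replicate 2 of both genotypes.

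Among the XTH genes no member passed in either fit. XTH29 (AT4G18990) had the most negative value, with 7.46, 7.63 and 6.79 in Col and 6.71, 6.55 and 6.57 in hda9-1. The hda9-1 arrays lay close together, while Col replicate 3 sat 0.07 above the highest of them. The change of −0.68 (SE 0.21) had a limma adjusted p of 0.120, or 0.0711 with the replicate block. Without Col replicate 3 it was −0.94 with an adjusted p of 0.0190, the only fit without 1 array in which an XTH gene passed.

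XTH33 (AT1G10550), which has a predicted membrane anchor, read 4.50, 4.52 and 4.41 in Col and 4.25, 4.15 and 4.24 in hda9-1 (−0.26, SE 0.09, adjusted p = 0.148). XTH18 and XTH19, adjacent genes known from roots, were at −0.31 (SE 0.12) and −0.20 (SE 0.15). XTH18 had its groups 0.002 apart, and those of XTH19 overlapped. XTH26, known from root hairs, had the largest positive value of the family (0.16, SE 0.09, adjusted p = 0.415), with 3.54, 3.48 and 3.51 in Col and 3.75, 3.55 and 3.71 in hda9-1, and its groups were 0.01 apart. XTH16, XTH20, XTH21 and XTH32 lay between −0.05 and 0.09, with overlapping groups.

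The spread between replicates bounded what could be seen. Over the 49 members the SE of the change ran from 0.08 to 0.69. Of the 43 that passed in neither fit, 32 were negative and 11 positive, with a median of −0.06. In each array the members' mean deviation from the Col mean was −0.03, 0.01 and 0.02 for Col replicates 1, 2 and 3 and −0.19, −0.16 and −0.18 for the hda9-1 replicates. The 3 hda9-1 arrays were thus close to each other and below every Col array in that mean. For the 9 brighter members alone the means were −0.12, 0.16 and −0.04 in Col and −0.61, −0.36 and −0.76 in hda9-1. Among these 9, EXPA15 read 7.00, 9.56 and 7.45 in hda9-1 against a Col mean of 8.94, which widens their spread, and GH9C2 is included through Col alone. The means without these genes were not computed. The closeness is therefore stated only for the average over all members. The median change of the 49 members was −0.07, nearer to none than these means, so the average does not describe a like shift of every gene.

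**Figure D5:**
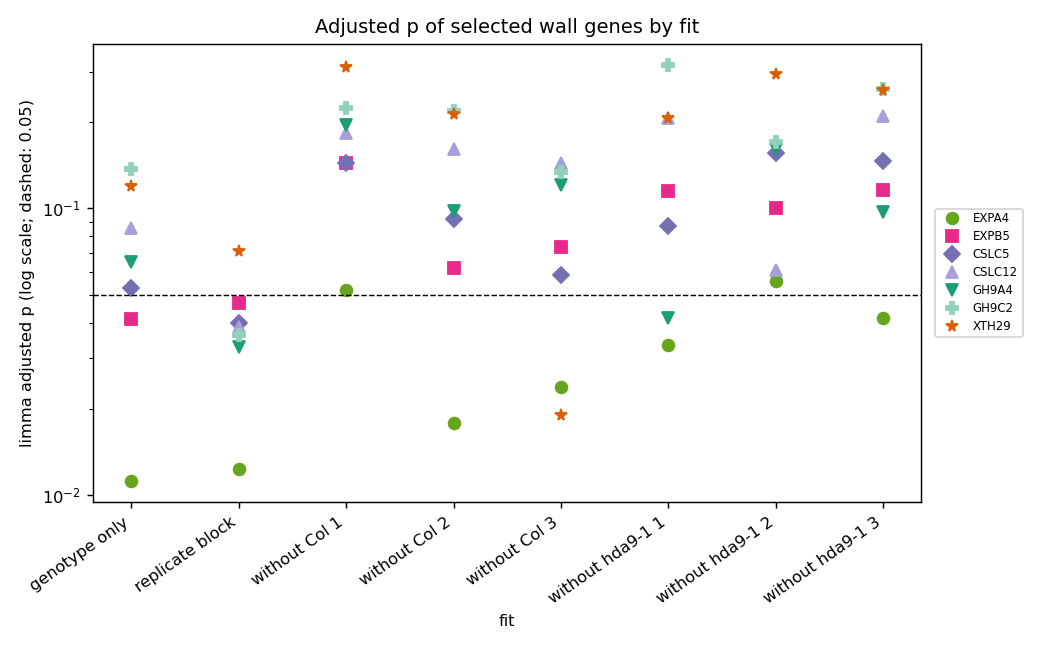
Limma adjusted p (y axis, log scale) of 7 wall genes in the fit by genotype, in the fit with the replicate block and in the fits without 1 array (x axis). Points below the dashed line at 0.05 passed. EXPA4 lies below the line in 6 of the 8 fits and EXPB5 in 2, and XTH29 only without Col replicate 3.

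Other genes of the same pathways were sparsely covered. Of 161 listed genes of hemicellulose synthesis and turnover, cellulose synthesis, nucleotide sugars, wall proteins and wall sensing, 8 were measured through a probe set of their own. None of the 8 passed in limma, by genotype or with the replicate block. At an unadjusted p under 0.05 there was 1, where 9.62% of all probe sets were lower and 9.59% higher. The gene was COB, whose GPI-anchored product guides cellulose deposition, with 8.14, 7.98 and 7.83 in Col and 7.59, 7.62 and 7.65 in hda9-1 (−0.36, SE 0.10, adjusted p = 0.102). COB was lower in all 3 mutant arrays, as were 12.1% of all probe sets. The xylan genes IRX10 (named GUT2 in the gene table), IRX15 and IRX15-L lay between −0.05 and 0.03, and the receptor kinase genes FER, THE1, ANX1 and ANX2 between −0.18 for ANX2 and 0.16 for FER.

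Markers of the tissues in a silique moved in both directions beside these values. Of 72 listed markers of embryo, seed coat, endosperm, silique wall, pollen and xylem, 10 were measured. The silique wall gene ADPG1, which acts in dehiscence, fell (−0.51, SE 0.10, limma adjusted p = 0.0399), while ALC, of the same tissue, was at 0.39 (SE 0.18, adjusted p = 0.285). The mean level of these silique wall markers was 9.37 to 9.65 in Col and 9.34 to 9.57 in hda9-1. The seed coat gene DELTA-VPE rose (1.45, SE 0.31, adjusted p = 0.0496). The other seed coat markers, BAN (0.10, SE 0.10, adjusted p = 0.655) and ARA12 (0.31, SE 0.10, adjusted p = 0.157), did not pass. The mean of the 3 measured seed coat markers, to which DELTA-VPE added most of the difference, was 6.16 to 6.65 in Col and 6.89 to 7.24 in hda9-1. Of the embryo markers, OLEO3 was at −0.61 (SE 0.16, limma adjusted p = 0.0805, or 0.0291 with the replicate block). PAP85 was at 0.02 (SE 0.08, adjusted p = 0.926). Their mean was 12.00 to 12.19 in Col and 11.77 to 11.94 in hda9-1. The mean of AGL62 and IKU2 for the endosperm was 3.67 to 4.13 in Col and 3.83 to 3.97 in hda9-1. AGL104, for pollen, read 3.72 to 3.94 in Col and 3.83 to 4.31 in hda9-1. No xylem marker was measured, and the part of tissue proportions in the wall gene values was not tested.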

How the data were processed

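The deposited log2 values of the 6 arrays (Col and hda9-1, 3 each) stand in 1 table. Per the submitters' processing notes, limma, affy and RMA were used, with no versions or settings. RMA corrects background, equalises the arrays and summarises each probe set, so a shift of most transcripts is hidden and weak signals give compressed differences. Arrays give no counts, and their number limits the precision. The 64 control probe sets were left out, which left 22746. The annotation gives 1 gene for 13513 of them, several for 503 and none for 8730. All entered 1 limma fit (lmFit and eBayes, limma 3.58.1, R 4.3.3) on genotype alone, with Benjamini-Hochberg adjustment over all probe sets. The code was tested on simulated data. Arrays with the same number shared deviations from their group means (r = 0.34, 0.21 and 0.21 across all probe sets), above the limit of 0.1 and above other pairs (−0.35 to 0.09). Deviations from a group mean cancel within a genotype, so positive values for same-numbered arrays push the other pairs down. The comparison with other pairs is therefore not separate evidence. The pairing comes from these data, since the labels only repeat the numbers. Replicates are biological per the labels. Every member called in either fit, the extremes of each family and, in counts or ranges, all others are named. Members, lists and tests were chosen with earlier results of these data known. Alternatives were a replicate block, each array left out, a dim filter, trend and robust eBayes, cyclic loess, median centring and array weights. Family sizes and neighbouring genes come from the gene table of assembly TAIR10.1. Coordinates and sequences are not used here.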

Additional observations from a re-analysis of the deposited data

How the results depend on the processing

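No member was called higher in limma in any setting run. The count of members called lower, 2 by genotype alone, was 6 with the replicate block (3.64% of all probe sets were called lower) and 5 with array weights (EXPA4, EXPB5, GH9A4, CSLC5 and XTH29, 3.84% of all probe sets). It was 0 to 2 without 1 array, where calls fell for all probe sets too. It was 0 without Col replicate 1 or hda9-1 replicate 2 (0.308% and 0.303% of all probe sets), 1 (EXPA4) without Col replicate 2 or hda9-1 replicate 3 (1.99% and 0.870%) and 2 without Col replicate 3 or hda9-1 replicate 1 (1.77% and 1.04%). It was 3 with the dim filter (EXPA4, GH9A4 and CSLC5 of the 9 members left, 4.37% of all probe sets left) and 3 with trend and robust eBayes (EXPA4, EXPB5 and GH9A4, 2.48%). Cyclic loess left 2 (EXPA4 and CSLC5, 2.42%), with EXPB5 at an adjusted p of 0.0568, and median centring left 2 (EXPA4 and EXPB5, 2.34%). The block changed no other call of a member or of the other wall genes. Of the tissue markers OLEO3 passed with it. The 15 members whose groups do not overlap became 14 with cyclic loess and 14 with median centring. They became 6 with the dim filter, by its construction, and 17 to 21 without 1 array, where fewer arrays make overlap less likely. The share over all probe sets was not counted in these settings, so these counts are not read as a result about the members. The median change was −0.60 with the dim filter and −0.11 to −0.051 without 1 array. Among the other wall genes, COB passed with array weights (1 call), and the cause was not tested. Averaging probe sets per gene was not run. It could not change the level of a member, since each has 1, and its effect on the adjusted p was not examined. Weak signal of 40 members limits what can be seen.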

Other observations

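Some probe sets of these families fall outside the choice of members and were looked at after the results were known. In 4 of them the annotation pairs the probe set with several genes. The one for GH9B14 and GH9B15 read 8.60, 8.93 and 8.30 in Col and 9.16, 9.04 and 8.80 in hda9-1. It was higher in the mutant by 0.39 (SE 0.17), with groups that overlapped, and did not pass in limma (adjusted p = 0.269, or 0.111 with the replicate block). Its direction is opposite to that of the 9 brighter members, and which of the 2 genes it measured cannot be told. The other 3, for pairs of GH9B or alpha-expansin genes, lay between −0.08 and 0.06.

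Another 3 genes carry a family name only as a synonym or with a species prefix. EXGT-A3, known as XTH27, read 10.57, 10.84 and 10.61 in Col and 10.60, 10.44 and 10.53 in hda9-1 (−0.15, SE 0.11, adjusted p = 0.525), and its groups overlapped. ATCSLC08, the remaining CSLC gene, was at −0.05 (SE 0.09). AT4G30380, with the synonym EXLB2, read 3.54, 3.54 and 3.58 in Col and 3.75, 3.76 and 3.76 in hda9-1 (0.20, SE 0.08, adjusted p = 0.211), on a dim probe set whose arrays did not overlap.

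EXPA15 had the widest spread of the members within a genotype. Its differences between same-numbered arrays, hda9-1 minus Col, were −0.92, −0.05 and −1.84 for replicates 1, 2 and 3, all negative and unequal in size.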
